A study of Mus musculus with 24 samples.

Results

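Levels of 7 genes tied to activated myeloid cells, Acod1, Pilra, Clec7a, Ly6c1, Lyz1, Lyz2 and Mmp9, were followed in DA1-3B, a leukaemia line from mouse with the Bcr-ABL oncogene. The genes were found by name in the annotation of the 1-colour arrays, where Acod1 stands under its older name Irg1. They are 7 of the 15058 genes that could be tested, and 11 of 39429 probes carry their names. They were chosen by their measured differences between the transfection groups on these same arrays, so their differences between groups describe that choice. No p-value is given for them, and the counts of calls below repeat the choice and show nothing beyond it. Where arrays of groups are said not to overlap, that describes the choice too. Its share over all genes was counted only for D361E against WT. RNA was measured on 24 arrays in 6 groups of 4, all from cells labelled with the strain C3H eOuJ and transfected with plasmids for p65/RelA, a DNA-binding subunit of NF-kB. The plasmids carried the non-cleavable mutant D361E, full-length p65 (WT), its N-terminal piece p1-361, its C-terminal piece p363-549, both fragments together, or no p65 (VOID, the empty plasmid). By the transfection protocol the C-terminal piece begins 1 residue before the position in the sample names. All cells belong to 1 line, and the labels give neither the time after transfection nor whether the 4 samples of a group were separate cultures. P-values therefore measure the spread between these samples, which may be technical.

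Acod1 encodes the mitochondrial enzyme that turns cis-aconitate into itaconate, a product of activated macrophages. Pilra is an inhibitory paired receptor of myeloid cells, and Clec7a (Dectin-1) is the receptor for fungal beta-glucans that signals to NF-kB through SYK and CARD9. Ly6c1 is a GPI-anchored surface protein of the family used to mark monocytes. Lyz1 and Lyz2 encode secreted lysozymes, which cut the peptidoglycan of bacterial walls; in mice, Lyz2 is the macrophage form and Lyz1 the form known from Paneth cells. Mmp9 is a secreted gelatinase that breaks down extracellular matrix. In p65, the N-terminal part holds the Rel homology domain, which binds DNA, and the C-terminal part holds the domains that activate transcription.

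The sequences of the probes that the results turn on are shown so that the transcripts read by each can be told apart. All are 60 bases long, written 5′ to 3′ as the array files give them, with coordinates on the mouse build mm9 from the same files. Acod1 was read by A_51_P123625 (chr14:103455171-103455231, plus strand), whose sequence was printed in 10 spots per array. Pilra had 4 probes on the minus strand of chromosome 5, and the last of them below was the one whose values did not follow the other 3. The Lyz1 probe (chr10:116724862-116724921) and the Lyz2 probe (chr10:116719175-116719234) lie on the minus strand of neighbouring genes. These probe positions are not set against exons here.
Acod1 A_51_P123625: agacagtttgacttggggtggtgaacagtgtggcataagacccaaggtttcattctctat
Pilra A_55_P2129354 (chr5:138264617-138264676): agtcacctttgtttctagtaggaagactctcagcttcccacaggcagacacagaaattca
Pilra A_55_P2129348 (chr5:138263180-138263239): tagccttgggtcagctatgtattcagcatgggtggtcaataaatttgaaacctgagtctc
Pilra A_55_P2090617 (chr5:138276560-138276619): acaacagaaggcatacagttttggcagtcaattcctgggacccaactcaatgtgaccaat
Pilra A_55_P2090612 (chr5:138277047-138277106): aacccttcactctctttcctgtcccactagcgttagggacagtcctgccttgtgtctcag
Lyz1 A_55_P2181738: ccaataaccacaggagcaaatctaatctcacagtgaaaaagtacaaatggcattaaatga
Lyz2 A_51_P321150: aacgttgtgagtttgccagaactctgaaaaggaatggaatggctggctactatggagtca
The longest run of bases that a probe of the 7 genes shared with any probe of another gene on the array was 17, between Pilra A_55_P2090617 and a probe of Pilrb1, the activating partner of Pilra. Clec7a was read at chr6:129411739-129411798 (minus strand), Mmp9 at chr2:164780620-164780679 (plus strand, 10 spots per array), and Ly6c1 by probes at chr15:74875495-74875554 and chr15:74877785-74877844 (minus strand). Ly6c2, a near-identical neighbour of Ly6c1 in mice, was not compared with these probes, so the Ly6c1 values may hold both transcripts.

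A level below is log2 of the processed signal minus log2 of the array's own 75th percentile, so 0 is the brightness of that percentile and each unit is a factor of 2. Per array, 49.4% to 55.5% of spots exceeded background clearly, with 75th percentiles between 635.8 and 1214 intensity units. Rela itself, read by 1 probe from base 2648 of its transcript, was at 4.62 to 4.88 in D361E, 4.68 to 4.85 in WT, 4.73 to 5.00 over the fragment arrays and 4.24 to 4.49 in VOID. That probe does not tell the p65 constructs apart. Whether it reads RNA from the plasmids was not tested, so these values do not give the level of any construct. Over the 200 genes that best separated the groups on the arrays of the other 3 sets of sample numbers, 21 of 24 arrays were closest to their own group's other arrays. The arrays numbered 4 of the fragment groups were not: that of p1-361 was closest to p363-549 (r = 0.78, against 0.14 with its own group), that of p363-549 to both fragments (r = 0.97, against -0.55), and that of both fragments to p1-361 (r = 0.71, against -0.09). Each of the 3 was thus closest to the group of another of the 3. Whether their labels were exchanged was not tested; the labels are kept here, and every mean of a fragment group rests on them. Results that rest on the fragment groups are given with and without these 3 arrays. Macrophage markers were well above background on all 4 arrays for 12 of 21 genes in D361E and for 12 of 21 in VOID, Csf1r, Itgam, Adgre1 and Cd68 among them in both groups, while Cd14, Mrc1 and Cd163 were above it on none. Their summed linear signal, in multiples of the 75th percentile, was 13.2 to 31.5 in D361E and 16.5 to 23.4 in VOID. Markers of other cell types were in part present as well. Of 21 neutrophil genes, 7 were above background on all 4 arrays of both D361E and VOID, Elane, Prtn3 and Csf3r among them, and 6 on none, with Ly6g, S100a8 and Retnlg among these. Of 12 mast cell and basophil markers, 6 were above it on all these arrays, including Cpa3 and Hdc, and Kit and Ms4a2 on none. Of 10 B cell markers, 3 were above it on all (Vpreb1, Cd22 and Cd79b) and 6 on none, Ms4a1 and Cd79a among them. Of 12 fibroblast, endothelial and epithelial markers, Kdr and Pecam1 were above it on all and 9 on none, including Col1a1, Cdh5 and Epcam. Of 15 erythroid and megakaryocyte markers, 11 were above it on all these arrays and 2 on none. The counts were 5 and 2 of 10 T cell markers, and 4 and 3 of 12 dendritic cell markers. In bulk RNA, fewer expressing cells and less RNA per cell cannot be told apart.

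**Figure D1:**
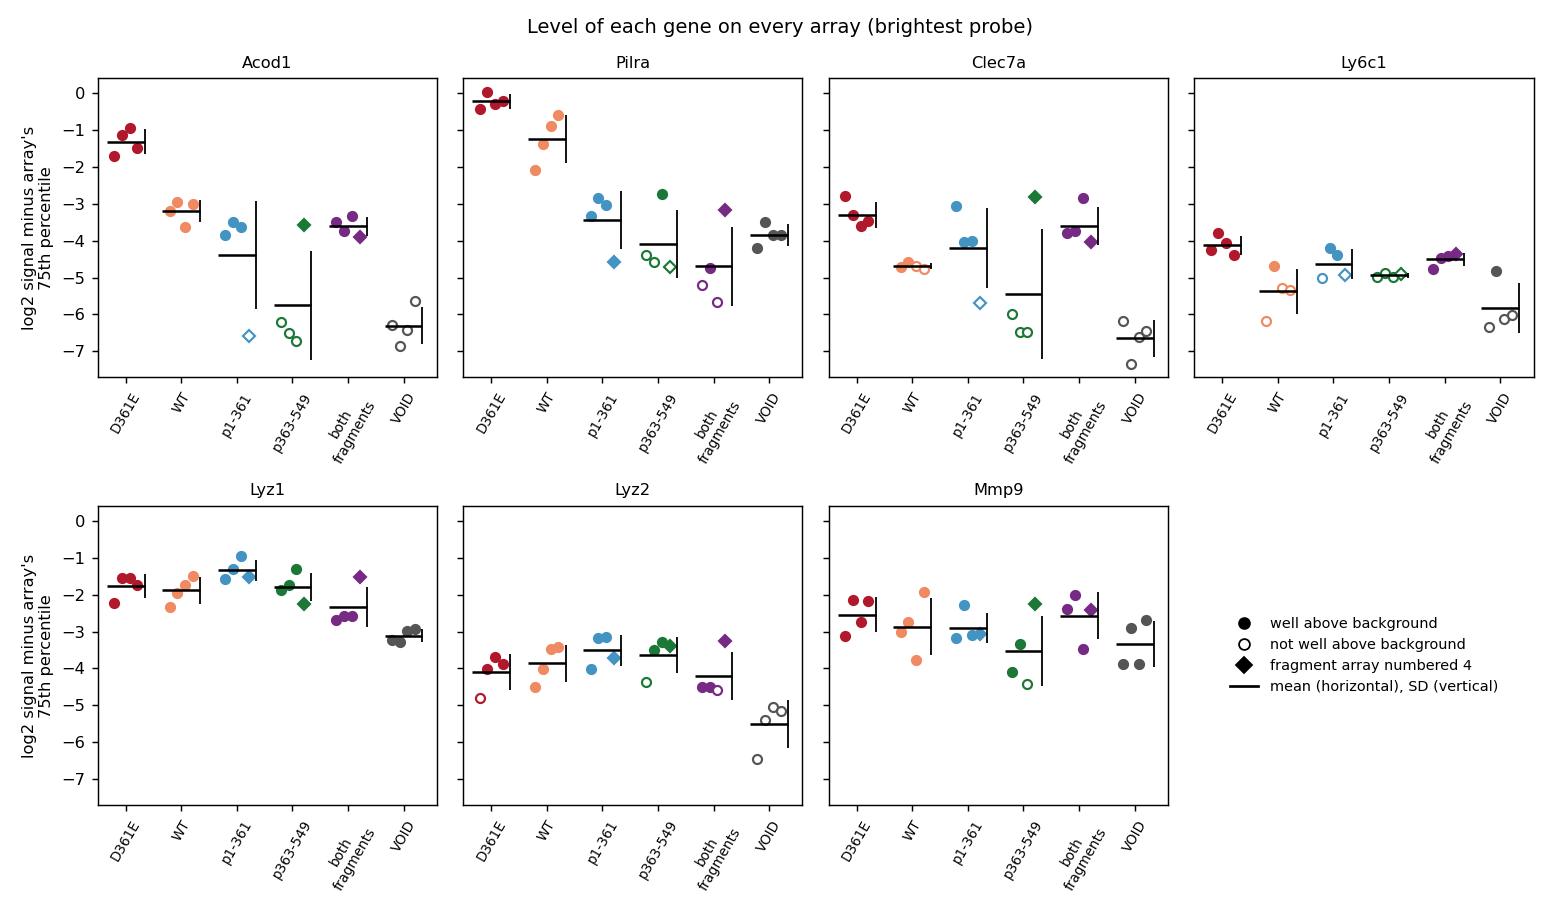
Level of each of the 7 genes (log2 signal minus the array's 75th percentile, brightest probe) on every array, by transfection group; filled marks are well above background, open marks are not, diamonds are the fragment arrays numbered 4, and bars give mean and SD of 4 arrays. Acod1 and Pilra stand highest in D361E and next in WT, the lysozymes stand lower in VOID than in every construct, and the Mmp9 groups overlap.

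Acod1, the itaconate enzyme, was brightest in D361E and was above background on no VOID array. Its levels on arrays 1 to 4 were -1.69, -1.13, -0.93 and -1.48 in D361E, -3.19, -2.94, -3.62 and -3.0 in WT, and -6.28, -6.84, -6.43 and -5.64 in VOID. The fragments gave -3.84, -3.49, -3.63 and -6.59 with p1-361, -6.20, -6.51, -6.73 and -3.58 with p363-549, and -3.48, -3.73, -3.32 and -3.90 with both fragments. The D361E arrays lay above all 20 others without overlap, and array 4 of p1-361 and array 4 of p363-549 each lay among the values of the other fragment group. Acod1 was higher than in VOID by 4.99 ± 0.59 in D361E, 3.11 ± 0.59 in WT, 1.91 ± 0.59 in p1-361, 0.55 ± 0.59 in p363-549 and 2.69 ± 0.59 in both fragments (log2 difference ± SE, n = 4 arrays each). Since VOID was not well above background, these are lower bounds of at least 12.3-fold in D361E, 3.34-fold in WT, 1.45-fold in p1-361 and 2.49-fold in both fragments, taken against the background level. Without the 3 arrays, Acod1 in p1-361 was higher than in VOID by 2.65 ± 0.25 (at least 2.42-fold) and in p363-549 the difference was -0.18 ± 0.25, with neither p363-549 nor VOID above background. Each SE comes from 1 spread shared by all arrays of the fit, so the D361E and WT errors also carry the spread of the fragment arrays. The SD of the 4 arrays was 0.34 in D361E, 0.30 in WT, 0.50 in VOID and 0.26 in both fragments. It was 1.48 in p1-361 and 1.47 in p363-549. Repeated spots of the probe differed by a median coefficient of variation of 10.9% within an array.

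Pilra, the inhibitory receptor, was highest in D361E and next in WT and, unlike Acod1, was above background on all VOID arrays by its brightest probe. Probe A_55_P2129354 gave -0.42, 0.03, -0.29 and -0.22 in D361E, -2.07, -1.39, -0.89 and -0.60 in WT, and -4.20, -3.48, -3.84 and -3.84 in VOID. With fragments it gave -3.33, -2.84, -3.02 and -4.58 (p1-361), -4.38, -4.57, -2.73 and -4.72 (p363-549), and -5.21, -4.73, -5.66 and -3.18 (both fragments). D361E, WT and every other group separated without overlap in that order, and VOID lay within the range of the fragment arrays. Pilra was higher than in VOID by 3.62 ± 0.48 in D361E (12.3-fold) and 2.60 ± 0.48 in WT (6.07-fold). The p1-361 difference from VOID was 0.40 ± 0.48, that of p363-549 -0.26 ± 0.48 and that of both fragments -0.85 ± 0.48, which without the 3 arrays became -1.36 ± 0.38. Against WT, Pilra differed by -2.20 ± 0.48 in p1-361, -2.86 ± 0.48 in p363-549 and -3.46 ± 0.48 in both fragments, and no array of a fragment group reached the lowest WT array. This probe was above background on 2 of 4 arrays of both fragments and on 1 of 4 of p363-549. The sizes in these 2 groups, with and without the 3 arrays, rest partly on signals not above it.

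The probes of Pilra did not all show this pattern. A_55_P2129348 and A_55_P2090617 followed A_55_P2129354 over the 24 arrays (r from 0.87 to 0.94 among the 3). A_55_P2129348 was higher than VOID by 4.08 ± 0.55 in D361E and 2.97 ± 0.55 in WT, and A_55_P2090617 by 2.26 ± 0.55 in D361E and 1.21 ± 0.55 in WT. Each of these probes was above background on 2 of 4 VOID arrays, so the sizes rest partly on signals not above it. A_55_P2090612, the probe farthest along chromosome 5, correlated with none of them (r from -0.08 to -0.04): its group means lay between -4.61 in WT and -3.99 in p1-361, with -4.37 in D361E and -4.48 in VOID. It was above background on 2 or 3 of 4 arrays in each group and so did not enter the tests. The file annotation lists no RefSeq transcript for it, while the other 3 match the RefSeq transcript of Pilra. The Ensembl transcript and the GenBank cDNA listed for it are listed for A_55_P2090617 too, so these entries do not set those probes apart. Why its values differed was not tested. Of the 2 Ly6c1 probes, A_55_P2064771 gave the values below, and A_55_P1961499 was above background on none of the 24 arrays.

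**Figure D2:**
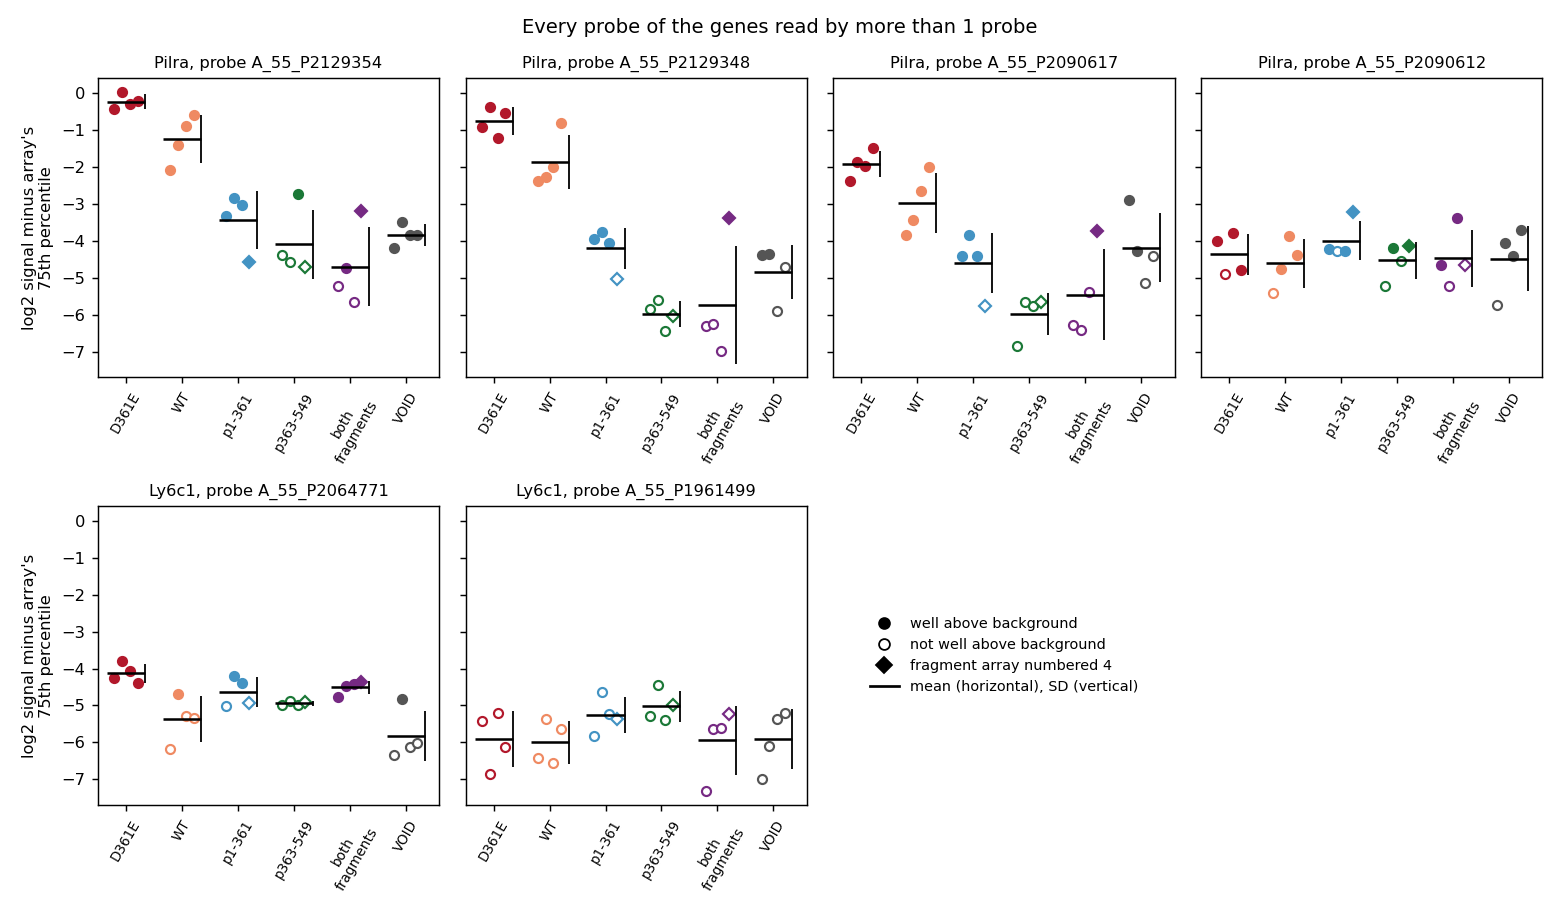
Levels on every array from the 4 Pilra probes and the 2 Ly6c1 probes, by transfection group, with marks and bars as in the plot of all 7 genes. The Pilra probes A_55_P2129354, A_55_P2129348 and A_55_P2090617 stand highest in D361E, then WT, then the other groups, A_55_P2090612 stays between group means of -4.61 and -3.99, and Ly6c1 A_55_P1961499 has open marks only.

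Clec7a, the beta-glucan receptor, was well above background on all 4 D361E arrays, on 2 of 4 WT arrays and on no VOID array. Its levels were -2.79, -3.31, -3.61 and -3.46 in D361E, -4.70, -4.58, -4.69 and -4.77 in WT (the last 2 not above background), and -6.16, -7.34, -6.60 and -6.46 in VOID. The fragment arrays gave -3.07, -4.04, -4.01 and -5.68 (p1-361), -6.0, -6.48, -6.48 and -2.81 (p363-549), and -3.79, -3.74, -2.85 and -4.04 (both fragments). As with Acod1, array 4 of p1-361 was near the p363-549 values and array 4 of p363-549 near those of both fragments. Clec7a was higher than in VOID by 3.35 ± 0.60 in D361E (at least 3.11-fold), 1.96 ± 0.60 in WT (at least 1.18-fold), 2.44 ± 0.60 in p1-361 (at least 1.65-fold), 1.2 ± 0.60 in p363-549 and 3.04 ± 0.60 in both fragments (at least 2.50-fold). The difference between D361E and both fragments was 0.31 ± 0.60, with overlapping arrays. Without the 3 arrays the p1-361 value was 2.93 ± 0.30 (at least 2.33-fold), and that of p363-549 was 0.32 ± 0.30, with no array of either p363-549 or VOID above background.

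Ly6c1 was dim throughout. Its brighter probe gave -4.25, -3.79, -4.07 and -4.39 in D361E, -6.18, -4.68, -5.28 and -5.35 in WT, and -6.33, -4.83, -6.11 and -6.01 in VOID, above background on 4, 1 and 1 arrays of these groups in that order. The p1-361 arrays were at -5.01, -4.19, -4.40 and -4.92, p363-549 at -4.99, -4.87, -5.00 and -4.90 with none above background, and both fragments at -4.77, -4.48, -4.42 and -4.37. D361E lay above WT and VOID without overlap, while neighbouring groups in the order of means (D361E, both fragments, p1-361, p363-549, WT, VOID) overlapped throughout. The differences from VOID were 1.70 ± 0.29 in D361E, 0.45 ± 0.29 in WT, 1.19 ± 0.29 in p1-361 and 1.32 ± 0.29 in both fragments. With 1 of 4 VOID arrays above background, these sizes rest mostly on signals not above it, and no fold is given; p363-549, above background on no array, is not set against VOID.

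The lysozymes showed another pattern, in which every construct stood above VOID. Lyz1 was at -2.23, -1.55, -1.56 and -1.74 in D361E, -2.34, -1.94, -1.73 and -1.48 in WT, and -3.23, -3.29, -3.0 and -2.93 in VOID. With p1-361 it was at -1.57, -1.31, -0.95 and -1.51, with p363-549 at -1.86, -1.74, -1.31 and -2.26, and with both fragments at -2.69, -2.57, -2.57 and -1.52. Every one of the 20 construct arrays exceeded the highest VOID array, and Lyz1 was above background on all 24 arrays. How many of all genes separate from VOID in this way was not counted. The differences from VOID were 1.34 ± 0.25 in D361E, 1.24 ± 0.25 in WT, 1.78 ± 0.25 in p1-361, 1.32 ± 0.25 in p363-549 and 0.77 ± 0.25 in both fragments, or 0.50 ± 0.21 in both fragments without the 3 arrays. Its highest mean was in p1-361, at -1.33 ± 0.28 (SD, n = 4).

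Lyz2, the macrophage lysozyme, was above background on no VOID array. Its levels were -4.79, -4.02, -3.69 and -3.88 in D361E, -4.49, -4.02, -3.49 and -3.43 in WT, and -6.47, -5.40, -5.04 and -5.16 in VOID. The fragments gave -4.01, -3.17, -3.16 and -3.71 (p1-361), -4.37, -3.51, -3.29 and -3.40 (p363-549), and -4.51, -4.50, -4.58 and -3.24 (both fragments). Again all 20 construct arrays lay above the 4 VOID arrays, which every comparison with VOID shares, and the share of all genes was not counted. Lyz2 was higher than in VOID by 1.42 ± 0.36 in D361E (at least 1.76-fold), 1.66 ± 0.36 in WT (at least 2.07-fold), 2.00 ± 0.36 in p1-361 (at least 2.63-fold), 1.87 ± 0.36 in p363-549 (at least 2.40-fold) and 1.31 ± 0.36 in both fragments (at least 1.63-fold). The level was highest in p1-361 for both lysozymes, but the 5 construct groups overlapped with their neighbours in the order of means.

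Mmp9, the gelatinase, separated no group from VOID. It was at -3.11, -2.14, -2.75 and -2.18 in D361E, -3.02, -2.74, -3.77 and -1.93 in WT, and -3.87, -2.91, -3.88 and -2.69 in VOID. It was at -3.16, -2.28, -3.09 and -3.07 in p1-361, -4.09, -3.35, -4.42 and -2.25 in p363-549, and -2.38, -2.0, -3.46 and -2.42 in both fragments. Differences from VOID were 0.80 ± 0.44 in D361E, 0.48 ± 0.44 in WT, 0.44 ± 0.44 in p1-361, -0.19 ± 0.44 in p363-549 and 0.77 ± 0.44 in both fragments. When each array was set against the VOID array of its own set of 6 consecutive sample numbers, Mmp9 was higher in 4 of 4 sets in D361E (0.51 to 1.13), in WT (0.11 to 0.85) and in both fragments (0.27 to 1.49), in 3 of 4 in p1-361 and in 1 of 4 in p363-549, although the groups overlapped as wholes. No label pairs the samples of a set, the VOID arrays are shared, and the share of all genes was not counted. Within slides, Mmp9 was higher than in VOID in 2 of 3 in D361E (-0.42 to 1.74) and 2 of 2 in WT (1.13 to 1.96). It was higher in 2 of 2 slides in p1-361, in 1 of 3 in p363-549 and in 1 of 2 in both fragments (-0.77 to 0.53).

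**Figure D3:**
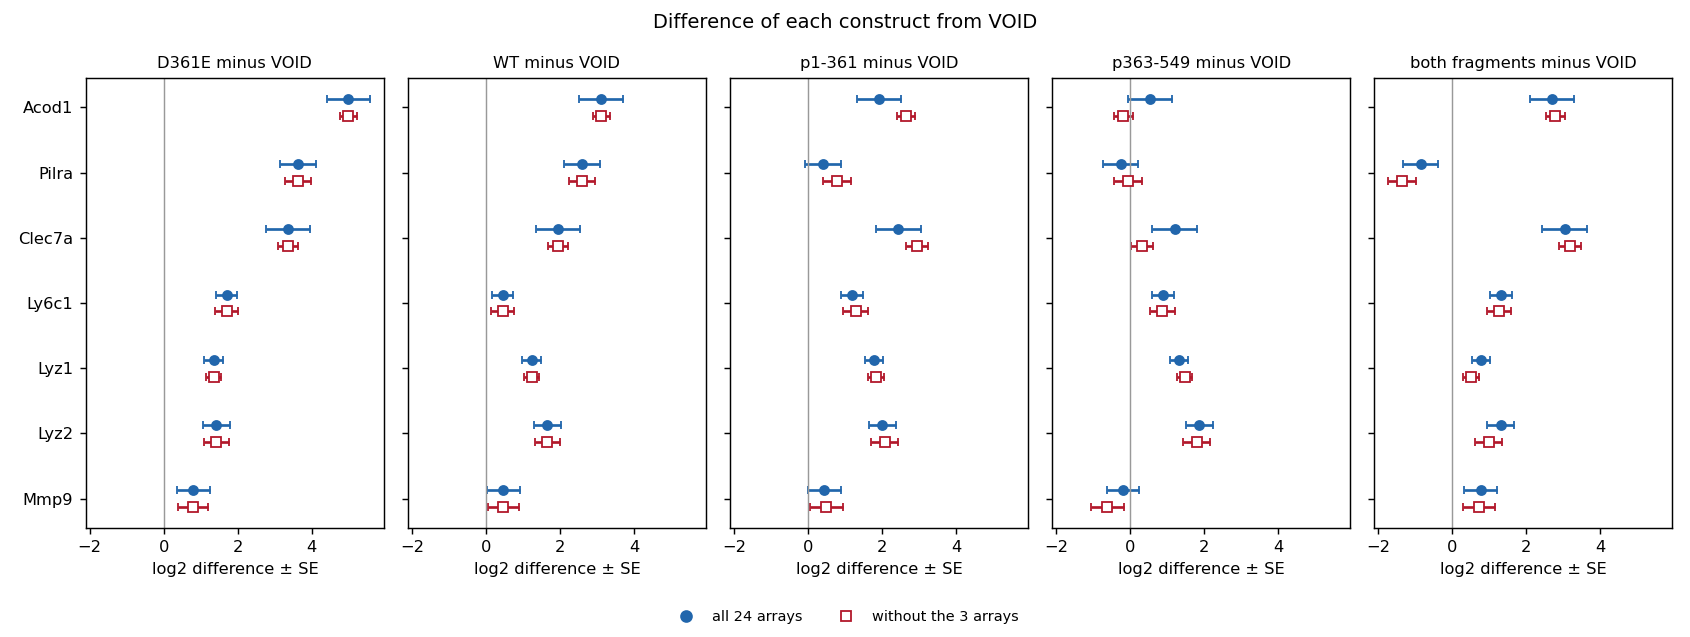
Log2 difference of each construct from VOID for the 7 genes, with limma standard errors; filled circles use all 24 arrays and open squares leave out the 3 fragment arrays numbered 4. Acod1 in p1-361 moves to 2.65 and in p363-549 to -0.18 without those arrays, and the D361E and WT values are the same in both.

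A call below is a Benjamini-Hochberg adjusted p under 0.05 over all genes, from limma. All 7 genes passed the filter on dim probes, each through at least 1 group in which it was well above background on all 4 arrays, so the counts repeat the choice of the genes. Against VOID, 5 of 7 were called higher in D361E (Acod1, Pilra, Clec7a, Ly6c1 and Lyz1), in a comparison that called 0.432% of all genes higher. In WT 4 of 7 were called (Acod1, Pilra, Lyz1 and Lyz2), beside 0.239% of all genes. Lyz1 and Lyz2 were the 2 called in p1-361 (0.365% of all genes) and the 2 called in p363-549 (0.179%). With both fragments 4 were called (Acod1, Clec7a, Ly6c1 and Lyz2), beside 1.95%. None was called lower in any of these 5 comparisons, which share the VOID arrays. Without the 3 arrays, when 15305 genes were tested, the calls of higher members were 6 in D361E (0.974% of all genes higher), 5 in WT (0.647%), 5 in p1-361 (1.34%), 2 in p363-549 (0.34%) and 3 in both fragments (4.78%), where Pilra was called lower, beside 4.94% of all genes. Some counts turned on single arrays: in WT 1 of 7 was called without VOID array 2 or without WT array 2, in p1-361 5 were called without its own array 4, and in p363-549 0 were called without its own array 3. With slide as a fixed block, 1 was called in WT and 0 in p363-549. For the single arrays left out and the slide block, the share of all genes was not counted.

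Slides and sets of sample numbers held arrays of several groups, so differences could be read within them. D361E stood above VOID in all 3 slides that held both, by 3.95 to 5.91 for Acod1, 3.19 to 3.87 for Pilra, 3.29 to 3.73 for Clec7a, 0.76 to 2.32 for Ly6c1, 0.70 to 1.73 for Lyz1 and 0.37 to 1.71 for Lyz2, while Mmp9 ran from -0.42 to 1.74. WT stood above VOID in both slides that held the pair, by 3.34 to 3.43 for Acod1, 2.82 to 3.24 for Pilra, 1.29 to 1.51 for Lyz1 and 1.62 to 2.44 for Lyz2. Within the 4 sets, the D361E difference from VOID was 4.16 to 5.71 for Acod1 and 3.51 to 3.78 for Pilra. For Acod1 within slides, p1-361 differed from VOID by -0.31 to 2.16, p363-549 by -0.45 to 3.27 and both fragments by 2.32 to 3.36. The genes were chosen on these same arrays, so the directions within slides and sets repeat that choice, and their share over all genes was not counted.

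D361E and WT, the full-length proteins that differ in 1 residue, were also set side by side. Acod1 was at a difference of 1.88 ± 0.59 (3.67-fold) in D361E from WT, Pilra of 1.02 ± 0.48 (2.02-fold), Clec7a of 1.39 ± 0.60 and Ly6c1 of 1.24 ± 0.29. For Clec7a and Ly6c1 no fold is given, since WT was above background on 2 arrays for Clec7a and on 1 for Ly6c1. The arrays of both groups did not overlap for these 4 of the 7 genes, nor for 3.61% of all genes. limma called 0 of the 7 in D361E against WT (0.0797% of all genes). Without the 3 fragment arrays it called 2 of the 7, Acod1 and Clec7a, beside 0.529% of all genes. A fit of the D361E and WT arrays alone, with none of these left out, called Acod1 and Clec7a too. The share of all genes called in that fit was not counted. The differences of D361E from WT were 0.11 ± 0.25 for Lyz1, -0.24 ± 0.36 for Lyz2 and 0.32 ± 0.44 for Mmp9, with overlapping arrays. For Pilra, the other 2 probes that follow it overlapped between D361E and WT, with differences of 1.11 ± 0.55 (A_55_P2129348) and 1.06 ± 0.55 (A_55_P2090617).

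The fragment groups were also compared with each other; their arrays were among those on which the genes were chosen, so these values too are a description. With all 24 arrays, limma called 0 of 15058 genes (0% of all genes) in each of p1-361 against p363-549, both fragments against p1-361 and both fragments against p363-549. At an unadjusted p under 0.05 the counts were 278, 2916 and 2782 genes in that order. Of the 7, this took in Acod1 in the first comparison, Pilra and Lyz1 in the second, and Acod1, Clec7a, Lyz1 and Mmp9 in the third. Acod1 differed by 1.37 ± 0.59 between p1-361 and p363-549 and by 2.14 ± 0.59 between both fragments and p363-549. Lyz1 was at a difference of -1.01 ± 0.25 in both fragments against p1-361, and Pilra gave -1.25 ± 0.48 there.

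**Figure D4:**
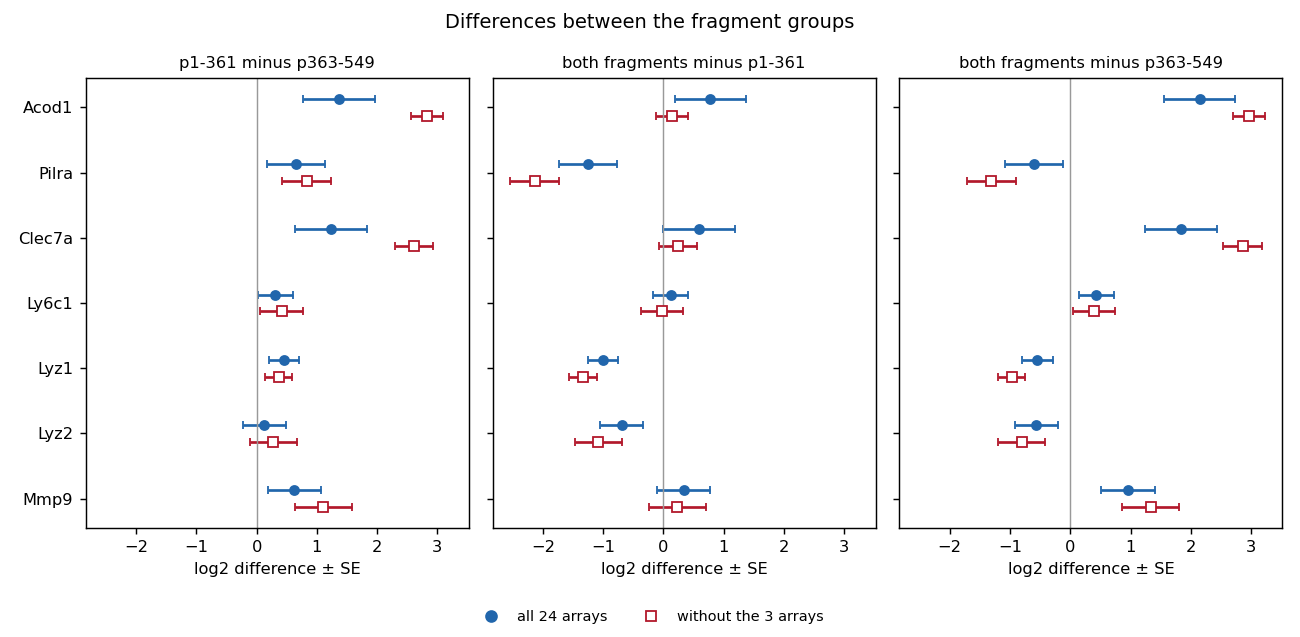
Log2 differences between the fragment groups for the 7 genes, with limma standard errors; filled circles use all 24 arrays and open squares leave out the 3 fragment arrays numbered 4. Without those arrays Acod1 and Clec7a move to 2.83 and 2.61 in p1-361 against p363-549, and Pilra to -2.14 in both fragments against p1-361.

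Without the 3 arrays the tests between fragment groups gave calls, in a spread that is smaller partly by construction, since the arrays left out are the ones that stood apart. In p1-361 against p363-549, 0.588% of all genes were called (90 genes), with 2 of the 7 among them. Acod1 was higher in p1-361 by 2.83 ± 0.26, at least 1.99-fold since p363-549 was not above background. Clec7a was higher by 2.61 ± 0.32, at least 1.92-fold. Each was higher in 3 of 3 p1-361 arrays than in all 3 of p363-549, a separation whose share over all genes was not counted. The other 5 genes were not called in this comparison.

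Both fragments together then differed from each fragment alone. Against p1-361, 11.9% of all genes were called (1816 genes) and 2 of the 7. Lyz1 fell by 1.34 ± 0.23 on the log2 scale and Pilra fell by 2.14 ± 0.41. Against p363-549, 15.4% were called (2355 genes) and 4 of the 7, with Acod1 higher by 2.97 ± 0.26 (at least 2.19-fold) and Clec7a by 2.86 ± 0.32 (at least 2.27-fold). Lyz1 fell by 0.97 ± 0.23 and Pilra fell by 1.31 ± 0.41. Both Pilra differences rest on dim spots, with 1 of 3 arrays of both fragments above background. In p363-549, too, 1 of 3 was above it. With all arrays and the mean of the Pilra probes, the difference of both fragments from p363-549 was 0.0612. In each of these 6 differences the 3 arrays of both fragments lay on 1 side of the 3 arrays of the other group. How many of all genes separated in this way was not counted, so this is a description only. The shares of 11.9% and 15.4% mean that calls of this kind were common across the array. With all arrays kept and set membership as a fixed term, 2 of the 7 were called in each of the comparisons with both fragments and 0 in p1-361 against p363-549. Over all genes that fit called 2383 in both fragments against p1-361, 2103 in both fragments against p363-549 and 0 in p1-361 against p363-549.

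Across the 24 arrays Pearson's r was above 0 for each of the 21 pairs of the 7 genes. It was 0.89 between Lyz1 and Lyz2 and 0.85 between Acod1 and Clec7a, and ran from 0.11 (Lyz1 and Mmp9) to 0.65 (Acod1 and Pilra) for the others. Ly6c1 gave 0.59 with Clec7a, 0.56 with Acod1 and 0.52 with both Lyz1 and Lyz2, Acod1 gave 0.59 with Mmp9, and Pilra 0.26 with Clec7a. These values describe 24 arrays that share 6 treatments and their brightness, and the arrays of a group cluster. Since the genes were chosen by their differences between groups on these arrays, the signs of r follow in part from that choice. How many other pairs of genes have r above 0 was not counted. Acod1 and Clec7a share a low p363-549 and VOID level and differ in WT, whereas Pilra has its lowest mean in both fragments, where Acod1 and Clec7a stand above VOID. The genes most like each member over the arrays, by Pearson's r among 15022 genes, were AK141540 (0.91), Clec4e (0.90) and Gramd1b (0.89) for Acod1. For Pilra they were Prkd3 (0.92), 2610528A11Rik (0.91) and the unnamed probe A_55_P1998811 (0.90). For Clec7a they were Zdhhc15 (0.92), Fdx1 (0.92) and A_55_P2126557 (0.91), and for Ly6c1 Eya2 (0.75), Klrb1f (0.72) and Hibch (0.71). For Lyz1, Cdc42ep3 (0.89) and Ift57 (0.83) were among the 3 most like it, Lyz2 was most like H2-Q2 (0.87), A_55_P1980548 (0.86) and H2-T9 (0.86), and Mmp9 most like Klhl5 (0.89), Tspyl3 (0.88) and Ikbkg (0.88). Prkd3, a protein kinase D, had mean levels of -3.65 in D361E, -4.06 in WT, -6.61 in p1-361, -6.90 in p363-549, -7.13 in both fragments and -6.74 in VOID.

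**Figure D5:**
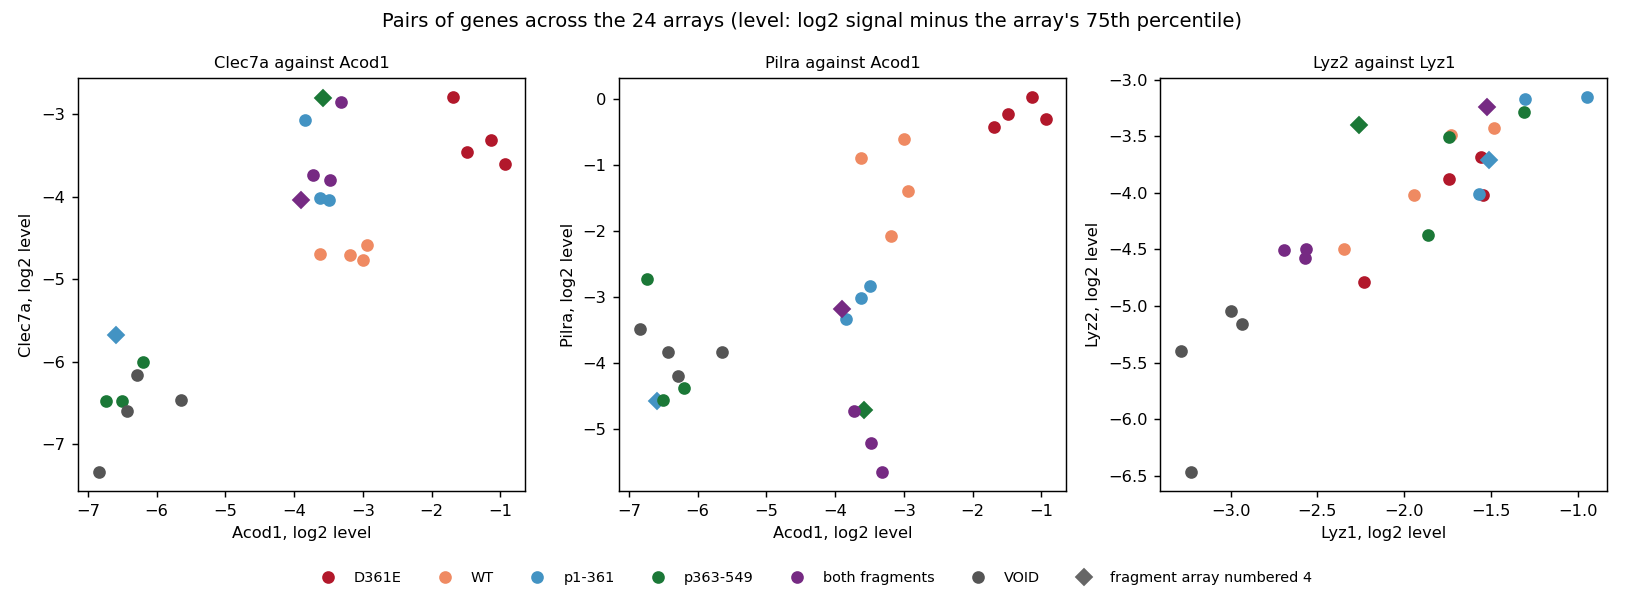
Levels of Clec7a and of Pilra against Acod1, and of Lyz2 against Lyz1, on the 24 arrays, coloured by transfection group, with diamonds for the fragment arrays numbered 4. Clec7a runs with Acod1 (r = 0.85), with the WT arrays at lower Clec7a than other arrays of like Acod1, Pilra is low on 3 of 4 arrays of both fragments where Acod1 lies between -3.90 and -3.32, and Lyz2 runs with Lyz1 (r = 0.89) with VOID lowest.

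Promoter windows are shown for Acod1, which alone among the 6 members with a window matched an NF-kB type motif, and for the lysozymes, whose levels ran together. Each is 250 bases before to 50 after the gene start, from RefSeq on GRCm38.p6, written 5′ to 3′ on the strand of the gene, with motif matches in capitals. The motifs searched on both strands were GGNNTTTCC (NF-kB type), GAGGAA (PU.1 type) and TGANTCA (AP-1 type), found in 5.82%, 28.3% and 7.81% of 32851 promoters of that length.
Acod1 (chr14:103046762-103047061, plus strand): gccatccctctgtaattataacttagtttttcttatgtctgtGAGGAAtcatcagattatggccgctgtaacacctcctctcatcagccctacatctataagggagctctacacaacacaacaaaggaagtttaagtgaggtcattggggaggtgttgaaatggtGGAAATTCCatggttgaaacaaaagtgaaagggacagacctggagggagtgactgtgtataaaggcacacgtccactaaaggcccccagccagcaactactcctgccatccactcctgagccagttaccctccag
Lyz1 (chr10:117292819-117293118, minus strand): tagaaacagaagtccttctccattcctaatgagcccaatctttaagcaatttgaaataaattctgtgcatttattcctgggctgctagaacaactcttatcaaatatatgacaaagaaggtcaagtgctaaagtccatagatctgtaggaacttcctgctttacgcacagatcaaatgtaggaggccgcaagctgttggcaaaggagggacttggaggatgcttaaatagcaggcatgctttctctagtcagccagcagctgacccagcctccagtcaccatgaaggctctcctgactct
Lyz2 (chr10:117282223-117282522, minus strand): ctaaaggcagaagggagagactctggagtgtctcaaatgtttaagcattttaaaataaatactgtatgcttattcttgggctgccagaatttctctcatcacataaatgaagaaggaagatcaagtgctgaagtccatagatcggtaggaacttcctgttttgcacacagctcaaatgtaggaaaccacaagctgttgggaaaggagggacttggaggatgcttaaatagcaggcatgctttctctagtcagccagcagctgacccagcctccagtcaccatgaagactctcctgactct
The NF-kB type match of Acod1 has its first base at -85 from the gene start and lies on the minus strand, and a PU.1 type match begins at -208. Pilra, Clec7a and Ly6c1 held PU.1 type matches and no other, the lysozyme windows held none of the 3 motifs, and Mmp9 had no entry among these windows. The Lyz1 and Lyz2 windows were identical at 249 of 302 aligned positions (82.5%), with a longest shared run of 86 bases. A match describes these letters only.

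Lists of related genes were read beside the members, with the members left out; they too were put together with results of these arrays known. Of 14 tested C-type lectin and CARD9 genes, 2 rose in D361E, 1 in WT, 1 in p1-361, 0 in p363-549 and 3 in both fragments, and 0 fell in any of these; the list's median difference in D361E was 0.41, against -0.02 over all genes. Clec4e (Mincle, a receptor for mycobacterial glycolipids) rose by 2.58 ± 0.43 in D361E (limma adjusted p = 0.00266), by 2.10 ± 0.43 in WT and by 2.39 ± 0.43 in both fragments. Olr1, a scavenger receptor for oxidised lipoprotein, rose by 2.47 ± 0.50 in D361E and 2.43 ± 0.50 in both fragments. Clec4d rose by 0.85 ± 0.18 in p1-361. Of 18 paired receptors and adaptors, Pilrb2, a gene of the activating PILR family, rose in D361E by at least 3.60-fold, since VOID was not above background, and the other 17 were not called there. The list's median in D361E was 0.04. In both fragments 3 of the 18 fell, where 2.51% of all genes were called lower, among them Pirb (-3.07 ± 0.42) and the adaptor Tyrobp (-2.98 ± 0.45). In p363-549, where 0.405% of all genes were called lower, 2 fell, Tyrobp (-2.07 ± 0.45) and Pirb (-1.87 ± 0.42).

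Of 16 inflammatory macrophage response genes, which share Clec4e with the lectin list, 3 rose in D361E and 3 in WT and 0 fell in either, with list medians of 0.46 in D361E and 0.45 in WT, against -0.02 and -0.04 over all genes. In p1-361 0 rose and 1 fell, in p363-549 0 rose and 2 fell, and in both fragments 2 rose and 4 fell; the shares of all genes called higher are those given for the 7 genes, and 0.226% were called lower in D361E, 0.246% in WT and 0.352% in p1-361. Tnfaip3, an inhibitor of NF-kB signalling, rose by 1.79 ± 0.27 in D361E (limma adjusted p = 0.000984) and by 2.34 ± 0.27 in WT (limma adjusted p = 2.4e-05). Nfkbia, which encodes the inhibitor IkB-alpha, rose by 1.58 ± 0.29 in D361E and 1.70 ± 0.29 in WT. The chemokine gene Ccl5 fell in p1-361 (-2.28 ± 0.35) and in p363-549 (-1.52 ± 0.35), where Ccl3 fell by at least 3.94-fold. Saa3 (-4.81 ± 1.23) and Ccl4 (-3.78 ± 0.71) fell in both fragments, while Clec4e and Tnf (1.12 ± 0.30, named after its values were seen) rose there. Of 13 monocyte and macrophage markers, Tlr2 rose in D361E by 1.02 ± 0.22 and the other 12 were not called there. In p363-549 Ctss, a lysosomal protease, fell by at least 3.38-fold and Fcgr4 fell by 1.56 ± 0.33. In both fragments Fcgr4 fell by 2.32 ± 0.33 and Ctss by at least 4.53-fold. In both fragments, 3 of the 4 called macrophage markers were lower than in VOID, while Acod1 and Clec7a stood above VOID. Acod1 was below its D361E level there.

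No gene of the Ly6 and uPAR family (7 tested), the lysozyme and antimicrobial list (8), the citric acid cycle and itaconate breakdown list (26), the NRF2 targets (23) or the neutrophil granule genes (8) was called by limma in any construct against VOID. In D361E, at an unadjusted p under 0.05, these lists held 0, 2, 1, 1 and 1 genes that were higher, in that order, and 0 that were lower. Over the other constructs these counts ran from 0 to 5 genes higher and from 0 to 4 lower. Of the 4 tested matrix metalloproteinases and inhibitors, Reck, a membrane-anchored inhibitor, rose by 0.99 ± 0.22 in p1-361 and by 0.79 ± 0.22 in both fragments. Mast cell and basophil markers moved with the constructs as well: of 8 tested, 2 fell in D361E (Fcer1a, -3.60 ± 0.66, and Mcpt8, -2.74 ± 0.56). Fcer1a, the alpha chain of the IgE receptor, fell in WT (-3.37 ± 0.66), in p1-361 (-5.36 ± 0.66) and in p363-549 (-4.05 ± 0.66), and in both fragments by at least 30.7-fold. In both fragments 4 of the 8 fell, Cpa3 among them (-6.49 ± 1.03). The summed linear signal of the 12 mast cell markers was 35.6 to 61 in D361E and 49.7 to 74.8 in VOID. Among 11 erythroid and megakaryocyte markers 0 rose and 1 fell in D361E, 0 rose and 3 fell in WT, 1 rose and 2 fell in p1-361, none was called in p363-549, and 2 rose and 4 fell in both fragments. The haemoglobin gene Hbb-bs fell in D361E (-4.47 ± 0.89), in WT (-6.20 ± 0.89), in p1-361 (-3.88 ± 0.89) and in both fragments (-6.37 ± 0.89). Hba-a1 fell in WT (-2.50 ± 0.42), Klf1 in p1-361 (-1.09 ± 0.24), and Pf4 rose by 3.51 ± 0.62 in both fragments. Of the T cell markers Cd3d fell in both fragments (-1.05 ± 0.24), and of the dendritic cell markers Ccr7 fell in both fragments (-2.75 ± 0.67). The part of these markers in the levels of the 7 genes was not tested.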

How the data were processed

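RNA of 24 samples was measured on 1-colour Agilent arrays, 1 per sample. Per the file headers, the authors' scans were read with Feature Extraction 10.7.3.1, and the deposited intensity values used here are its processed signals, background-subtracted and not normalized between arrays. The other deposited quality marks, per the file headers, say whether a spot is well above background, saturated or an outlier; their values are 0 or 1. No spot used was saturated. The deposited series table held the same values (largest difference 0).

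From these, log2 of the signal minus log2 of each array's 75th percentile over non-control spots was taken, outlier spots (185 to 312 per array) were left out and repeated spots averaged. A probe was kept if some group had it well above background on 4 of 4 arrays, the brightest kept probe standing for its gene. Names came from RefSeq accessions (27508 of 39429 probes) and otherwise from the files. limma 3.58.1 in R 4.3.3 was fitted with 1 mean per group over 24 arrays, with Benjamini-Hochberg adjustment over 15058 genes at 0.05. On simulated data made for D361E against VOID with 15058 genes, it recovered 60%, 90%, 98% and 100% of genes changed by 1, 2, 3 and 4 on the log2 scale, with 7 false calls. The simulated noise was normal and independent, with each gene's own spread, no background floor and no arrays that stood apart. The changed genes were drawn at random, so these shares do not give the recovery for the 7 genes. Array number limits the precision. An "at least" fold sets the bright group's mean against the dim group's mean of, per array, the higher of the lowest signal well above background and the probe's own.

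The members and the gene lists were chosen with earlier results of these data known. Named genes were all members, per list at most 4 called genes in D361E and 2 in each other construct by size of change, and the 3 genes most like each member, of which 1 is not reported here. Replicate numbers follow the order of accession and no label pairs the samples; each set of 6 consecutive sample numbers holds 1 array of each group, and these 4 sets served as a block in an alternative. Alternatives were the background correction, scaling, probe filter, probe rule, slide and set blocks, variance trend, fits of 2 groups and samples left out.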

Additional observations from a re-analysis of the deposited data

Results flagged for a closer look

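In 66 sets of 4 arrays (11 probes in 6 groups), 9 held an array whose gap to its nearest neighbour took up more of the range than Dixon's 95% limit allows. Chance gives about 1 such set in 20. For Acod1, array 4 of p1-361 was at -6.59, with its nearest neighbour at -3.84, and array 4 of p363-549 was at -3.58, with its nearest neighbour at -6.20. Clec7a was at -2.81 on array 4 of p363-549, with the next array at -6.0. Lyz1 was at -1.52 and Lyz2 at -3.24 on array 4 of both fragments, with the next arrays at -2.57 and -4.50. These 5 values belong to the 3 arrays that were closest to another group.

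Another such value also comes from these arrays: Pilra probe A_55_P2090612 was at -3.21 on array 4 of p1-361, with the next array at -4.22. The other 3 come from other arrays. Pilra probe A_55_P2129354 was at -2.73 on array 3 of p363-549, with the next at -4.38, and Pilra probe A_55_P2090617 was at -6.85 on array 1 of p363-549, with the next at -5.78. Mmp9 was at -2.28 on array 2 of p1-361, with the next at -3.07. The cause of these values was not tested.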

How the results depend on the processing

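The number of the 7 genes called stayed within 1.5 times its value in 263 of 296 recomputed counts. Against VOID, normexp background correction gave 2 calls in D361E, 1 in WT, 1 in p1-361, 0 in p363-549 and 0 in both fragments, and keeping only probes above background on all 24 arrays, which left Lyz1 alone, gave 1, 1, 1, 1 and 0 in that order. Slide as a fixed block gave 1 in WT and 0 in p363-549; fits of 2 groups alone gave 2 in both fragments and 0 in p363-549. Blocking on the 4 sets, which match the replicate numbers, gave 4 calls in p1-361, 2 in both fragments against p1-361 and 2 in both fragments against p363-549 (2383 and 2103 of all genes in the last 2, against 0 and 0 without the block). Without the 3 arrays that stood apart, 5 were called in p1-361, 2 in p1-361 against p363-549, 2 in both fragments against p1-361 and 4 in both fragments against p363-549. Leaving out 1 array at a time gave 5 to 6 calls in D361E, 1 to 5 in WT, 2 to 5 in p1-361, 0 to 2 in p363-549, 3 to 4 in both fragments, and between fragment groups 0 to 0 for p1-361 against p363-549, 0 to 2 for both fragments against p1-361 and 0 to 3 for both fragments against p363-549 (3 without p363-549 array 4). Over all genes, 1685 of 15095 were called in both fragments against p363-549 without p363-549 array 4. In both fragments against p1-361, 963 of 15191 were called without array 4 of both fragments, where 2 of the 7 were called. For the alternatives against VOID, apart from leaving out the 3 arrays, the share of all genes was not counted. The cause of the moves in these counts was not tested.

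Of 759 differences of a gene between fragment groups, 736 kept direction and call, 18 passed the threshold only in the alternative and 5 turned. Ly6c1 in both fragments against p1-361 was -0.0216 without the 3 arrays, against 0.12 with all, and -0.0028 to 0.27 with 1 array left out. Ly6c1 in p1-361 against p363-549 was -0.0996 with normexp, against 0.31. Lyz2 in p1-361 against p363-549 ran from -0.11 to 0.30 with 1 array left out, against 0.13. Pilra in both fragments against p363-549 was 0.0612 with the mean of its probes, against -0.60. Of 2960 counts of called list genes, 302 moved by over 1.5 times. Signal over background limits Acod1, Clec7a, Ly6c1 and Lyz2 in VOID, where at most 1 of 4 arrays was above it. No label pairs the samples.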
